A study of Homo sapiens with 3 samples.

Results

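Aminoacyl-tRNA synthetases join each amino acid to its transfer RNA (tRNA), the step that supplies the ribosome with building blocks. The genes described here are 39: 20 cytosolic synthetases, 16 mitochondrial synthetases, the tRNA exporter XPOT and the scaffold proteins AIMP1 and AIMP2. They were chosen by gene symbol from the 16793 symbols measured. A cytosolic enzyme carries the older symbol in these data, so that AARS stands for the gene now called AARS1. A symbol that ends in 2 marks a mitochondrial enzyme. All 39 were present under 1 symbol each, and all 39 were among the 11512 genes that averaged 1 FPKM or more over the libraries, the level asked of a gene to be compared. FPKM are fragments scaled to transcript length and library size.

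RNA came from H446, an established human small cell lung cancer line, after 48 h with vehicle, with 5 µM BAS or with 10 µM BAS. BAS is 3-bromoascochlorin, a brominated form of the fungal compound ascochlorin, and the title of the study names its antitumor effect and the MAPK pathway. Each group was a lone library, so the spread between replicates is unknown and nothing below is tested. Where 3 levels of a gene follow each other, they are those of vehicle, then 5 µM, then 10 µM. The treated files name their columns ASB85 and ASB810, and that these codes mean the 5 µM and 10 µM doses rests on the labels alone.

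Cytosolic and mitochondrial protein synthesis are charged by largely separate sets of enzymes, all encoded in the nucleus. In the cytosol, several synthetases sit in a multisynthetase complex held by scaffold proteins, and the others act on their own. GARS and KARS serve both compartments from 1 gene each. Uncharged tRNA activates the kinase GCN2, which raises translation of the transcription factor ATF4, and ATF4 in turn is known to switch on amino acid transporters, asparagine synthesis and many cytosolic synthetase genes.

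ATF4 with a C/EBP partner binds a composite element whose core can be written TGATGNAA. Its presence near the start sites of the members was read from RefSeq promoter sequences (build GRCh38.p14), 250 bases before to 50 bases after each start. Of the 39 members, 33 had an entry, matched by old or new symbol; DARS, LARS, VARS, YARS, AARS2 and VARS2 did not. On either strand, 7 of 16 cytosolic genes and 1 of 14 mitochondrial genes held TGATGNAA, against 4.46% of all 27305 genes with windows (1217 genes). The stricter form TGATGCAA, which lies within the first, was in 6 of the 16 cytosolic and 0 of the 14 mitochondrial genes, against 1.08% of all genes. XPOT, AIMP1 and AIMP2 held neither. A gene with several windows was counted when any of them matched. A match is a run of letters, not a measured binding site.

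The 30 bases around each match are shown for all 8 members that hold it, whose levels are given below. Each is written 5′ to 3′ in the direction of the gene, with the 8 matching bases in capitals; TTGCATCA and TTTCATCA are matches on the opposite strand.
AARS: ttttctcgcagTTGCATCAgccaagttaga
CARS: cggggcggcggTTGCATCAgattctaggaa
GARS: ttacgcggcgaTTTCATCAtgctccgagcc
IARS: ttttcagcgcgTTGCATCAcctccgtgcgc
MARS: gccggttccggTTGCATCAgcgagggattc
NARS: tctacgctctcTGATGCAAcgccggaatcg
TARS: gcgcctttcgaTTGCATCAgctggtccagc
YARS2: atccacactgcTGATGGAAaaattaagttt

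These stretches lie at chr16:70289675-70289704 on the minus strand for AARS, chr11:3057407-3057436 minus for CARS, chr7:30594834-30594863 plus for GARS and chr9:92293692-92293721 minus for IARS. Those of MARS, NARS, TARS and YARS2 are chr12:57488053-57488082 plus, chr18:57621804-57621833 minus, chr5:33440956-33440985 plus and chr12:32756076-32756105 minus. The match begins 187 bases before the RefSeq start in AARS and 197 bases before it in YARS2. In CARS, GARS, IARS and MARS it begins 2, 33, 13 and 4 bases before the start, and in NARS and TARS at base 15 and base 3 of the transcript. In GENCODE 29 the matches of CARS, GARS, IARS, MARS, NARS and TARS fall in a noncoding part of an exon of the gene itself. The AARS match falls in a coding exon of a transcript of the neighbour DDX19B, and the YARS2 match in no exon.

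In the vehicle library the cytosolic genes were well above the mitochondrial ones. Their levels ran from 32.38 FPKM (DARS) to 200.95 FPKM (GARS), with a median of 63.5 FPKM, and the mitochondrial genes from 4.20 FPKM (PARS2) to 49.85 FPKM (IARS2), with a median of 13.4 FPKM. FPKM is per length, so these levels can be compared between genes. The 20 cytosolic genes together were 7.07 times the 16 mitochondrial genes. IARS2 was the mitochondrial gene nearest its cytosolic counterpart, with IARS at 1.07 times its level, while MARS was at 16.6 times MARS2. No member was below 1 FPKM in any library.

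**Figure D1:**
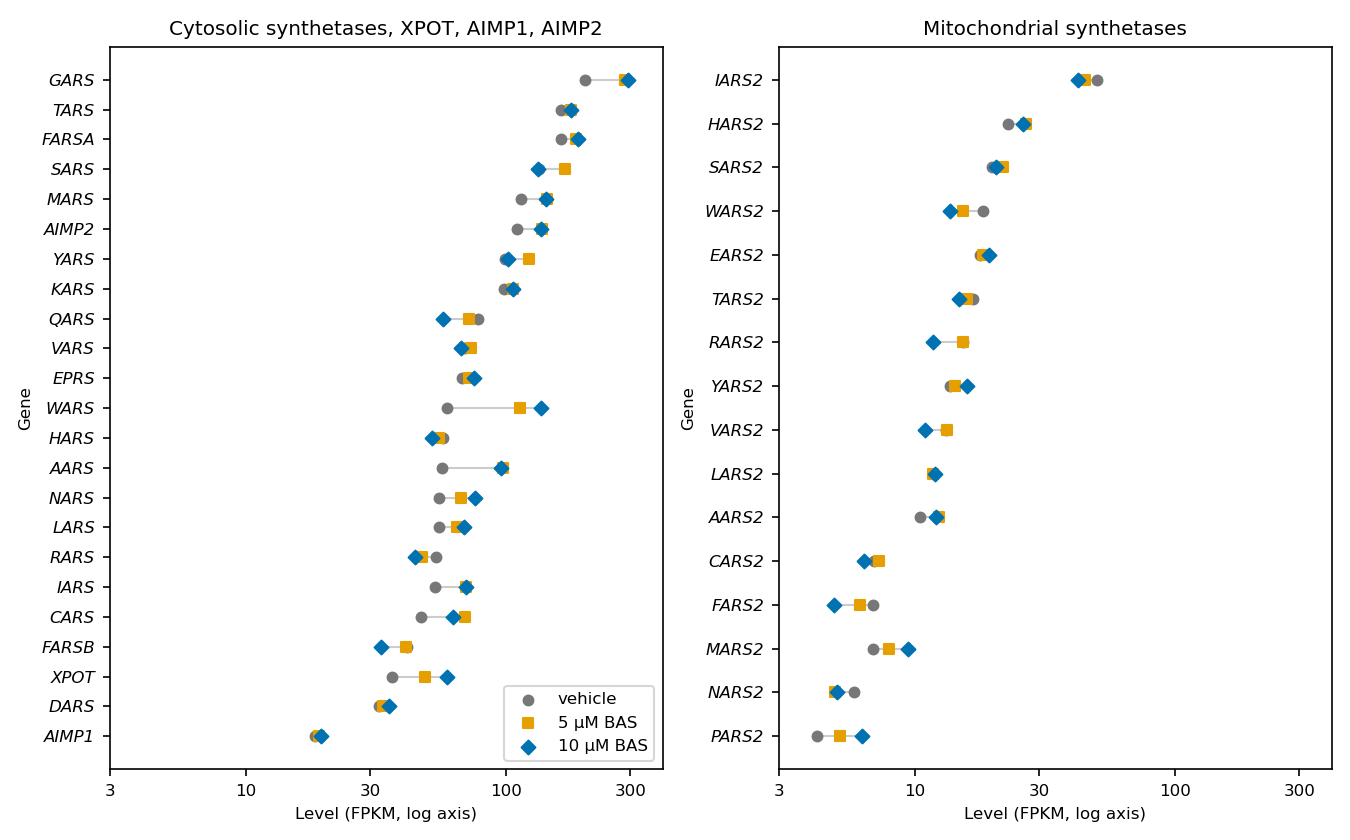
Level of each member in the 3 libraries, in FPKM on a log axis, with 1 point per library (circle, vehicle; square, 5 µM BAS; diamond, 10 µM BAS) and genes ordered by the vehicle level. The cytosolic genes lie between 32.38 and 294.35 FPKM, and the mitochondrial genes between 4.20 and 49.85 FPKM.

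With BAS the summed level of the cytosolic synthetases was higher and that of the mitochondrial synthetases was not. The cytosolic sum was 1698, 2067 and 2019 FPKM, with the treated libraries at 1.22 and 1.19 times vehicle. The mitochondrial sum was 240, 242 and 231 FPKM, or 1.01 and 0.961 times vehicle. GARS, WARS and AARS made up 179 of the 369 FPKM by which the cytosolic sum exceeded vehicle at 5 µM, and 209 of 321 FPKM at 10 µM. GARS alone made up 84.8 FPKM at 5 µM and 93.4 FPKM at 10 µM. GARS and KARS serve both compartments but are counted in the cytosolic sum only. As a share of all FPKM in a library, the cytosolic genes were 0.348% with vehicle and 0.407% and 0.41% with BAS.

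Differences between libraries are given as log2(FPKM + 1), on which low genes appear to differ less than they do, and ratios are plain ratios of FPKM. At 5 µM, 16 of 20 cytosolic and 9 of 16 mitochondrial genes were above vehicle, where 53.2% of all tested genes were. The median difference was 0.21 for the cytosolic genes, 0.03 for the mitochondrial genes and 0.02 for all genes. At 10 µM, 14 of 20 and 8 of 16 were above vehicle, against 56.5% of all genes, with medians of 0.14 and −0.05 against 0.05 for all genes. A call of at least 1.5-fold higher was reached by 2 cytosolic and 0 mitochondrial genes at 5 µM (3.01% of all genes) and again by 2 and 0 at 10 µM (6.05%). No member was 1.5-fold lower at either dose, a call reached by 1.62% and 3.47% of all genes. At 2-fold higher, 0 members were called at 5 µM (0.539% of all genes) and 1, WARS, at 10 µM (1.31%).

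Most members thus lay inside the range that holds the central 90% of all genes, which ran from −0.41 to 0.49 at 5 µM and from −0.50 to 0.63 at 10 µM. Above it were WARS, AARS, CARS and GARS at 5 µM and WARS, AARS and XPOT at 10 µM. No member lay below it.

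**Figure D2:**
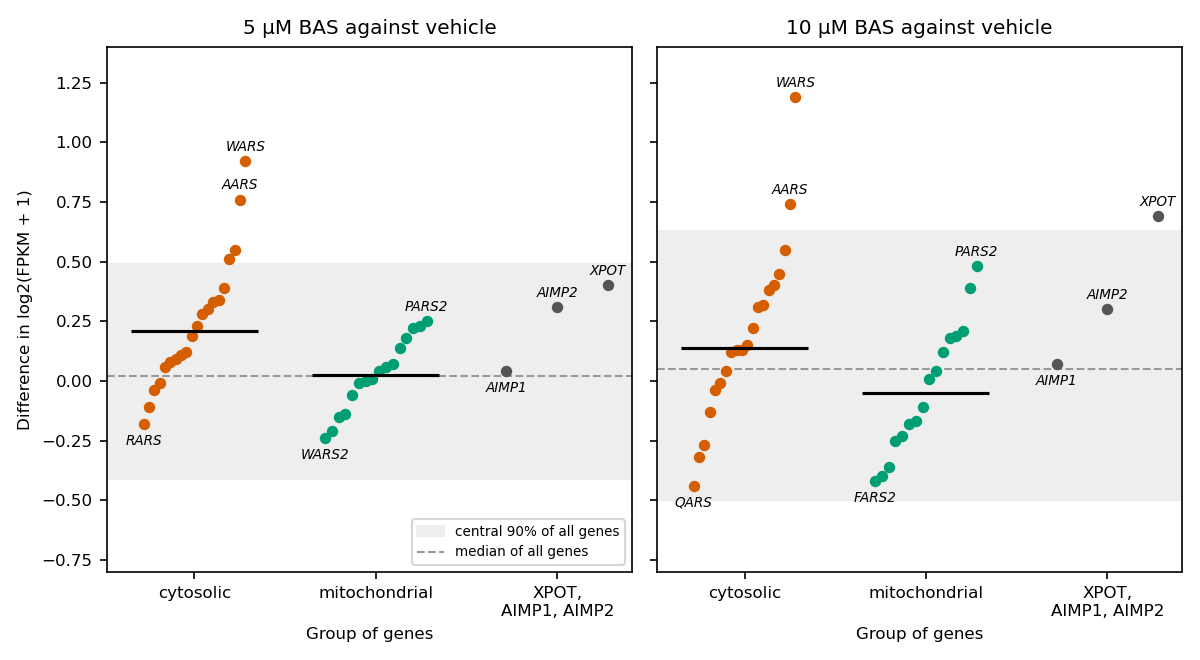
Difference from vehicle in log2(FPKM + 1) for each member at 5 µM (left) and 10 µM (right), with 1 point per gene, a black bar at the group median, a grey band for the central 90% of all 11512 genes and a dashed line at their median. WARS is at 0.92 and 1.19, and the mitochondrial genes lie between −0.24 and 0.25 at 5 µM and between −0.42 and 0.48 at 10 µM.

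WARS, the cytosolic tryptophanyl-tRNA synthetase, differed most. Its levels were 59.27, 112.95 and 136.18 FPKM, 1.91 and 2.30 times vehicle. Its level was lowest with vehicle and highest at 10 µM, and its difference stood at percentile 99.3 of all genes at each dose. Of its exon bases, 11% overlap other genes, WDR25 most of all. WDR25 was itself far lower, at 6.68, 9.81 and 10.74 FPKM. Whether the counting used strand is not given in the sources used here, so the reads of such overlaps cannot be told apart.

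WARS is also a known target of interferon gamma, so 16 genes of that response were looked up after its value had been seen. Of these, 12 were measured and 5 passed the filter, GBP1 among them only through the libraries of BAS. The transcription factor IRF1 was at 12.29, 20.13 and 18.02 FPKM. GBP2, an interferon-induced GTPase, was at 6.90, 8.92 and 9.65 FPKM, and SOCS1, an inhibitor of the signal, at 15.75, 17.07 and 18.49 FPKM. These 3 were above vehicle at both doses, as 53.2% of all genes were at 5 µM and 56.5% at 10 µM. The GTPase genes GBP1 and GBP4 were low, at 0.62, 1.35 and 1.73 FPKM and at 0.56, 0.23 and 0.35 FPKM. CIITA, the regulator of class II antigen presentation genes, was at 0.23, 0.35 and 0.20 FPKM, IDO1, which degrades tryptophan, at 0.11, 0.33 and 0.22 FPKM, and PSMB9 and TAP1 were at most 0.12 FPKM in every library. The part of this response in the WARS values was not tested.

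AARS, which charges alanine, was at 56.80, 96.99 and 95.38 FPKM, 1.71 and 1.68 times vehicle. The 2 treated libraries were close to each other and both far above vehicle. GARS, the glycine enzyme of both compartments and the member with the highest level in every library, was at 200.95, 285.76 and 294.35 FPKM, 1.42 and 1.46 times vehicle. CARS, the cysteine enzyme, was at 47.04, 69.35 and 62.36 FPKM, its treated libraries again both above vehicle.

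A second tier of cytosolic enzymes was moderately higher at both doses. IARS (isoleucine) was at 53.48, 70.47 and 69.97 FPKM, MARS (methionine) at 114.33, 143.68 and 142.07 FPKM and NARS (asparagine) at 55.18, 67.33 and 75.72 FPKM. LARS, the leucine enzyme that also acts as a leucine sensor for mTORC1, was at 55.16, 64.86 and 69.04 FPKM. These 4 were between 1.18 and 1.37 times vehicle in the treated libraries. A 2.13% share of MARS exon bases overlaps other genes, most of all DDIT3 (CHOP). This stress regulator was at 11.99, 41.25 and 51.08 FPKM, well under the level of MARS.

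SARS and YARS were above vehicle at 5 µM and near it at 10 µM. SARS (serine) was at 133.30, 169.06 and 132.38 FPKM, or 1.27 and 0.99 times vehicle. YARS (tyrosine) was at 99.26, 122.09 and 101.91 FPKM, or 1.23 and 1.03 times vehicle. In both genes the 5 µM library was the high one, and the vehicle and 10 µM libraries lay close together.

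Smaller differences were seen in TARS (threonine, 162.70, 177.21 and 177.98 FPKM), KARS (lysine, 98.26, 106.48 and 106.78 FPKM) and EPRS, the fused glutamate and proline enzyme (67.68, 72.22 and 75.28 FPKM). DARS (aspartate) was at 32.38, 33.73 and 35.48 FPKM and VARS (valine) at 69.37, 73.47 and 67.22 FPKM. All 5 stayed between 0.97 and 1.11 times vehicle.

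QARS, RARS and HARS were lower. QARS, the glutamine enzyme, was at 78.10, 72.05 and 57.31 FPKM, 0.73 times vehicle at 10 µM and at percentile 6.72 of all genes there. RARS (arginine) was at 53.92, 47.38 and 44.68 FPKM and HARS (histidine) at 57.02, 55.37 and 52.08 FPKM. In each of these 3 genes the vehicle library was the highest and the 10 µM library the lowest, an order found in 20.8% of all genes. Over the 39 members this falling order was seen in 9, and the rising order, vehicle below 5 µM below 10 µM, in 15, where 32.9% of all genes had it.

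The phenylalanine enzyme is built from 2 kinds of subunit in equal number, FARSA and FARSB, and their RNA levels parted. FARSA was at 162.33, 184.93 and 189.70 FPKM and FARSB at 41.64, 41.37 and 33.13 FPKM. FARSA was thus 3.9 times FARSB with vehicle, 4.47 times at 5 µM and 5.73 times at 10 µM. FARSA was highest and FARSB lowest in the 10 µM library.

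Against general knowledge of ATF4, 12 of the 20 cytosolic genes are widely listed as its targets (AARS, CARS, EPRS, GARS, IARS, LARS, MARS, NARS, SARS, TARS, WARS and YARS), as is XPOT. This list was written with earlier results of these data known and is not independent of them. Of the 12, 12 were above vehicle at 5 µM and 11 at 10 µM, SARS being the exception, with medians of 0.33 and 0.35. Of the other 8, 4 and 3 were above vehicle, with medians of 0.02 and −0.09. The share of all genes above vehicle was 53.2% and 56.5%, and the counts of the other 8 lay near or below it. At 5 µM the lowest of the 12 was EPRS at 0.09 and the highest of the 8 was FARSA at 0.19, so that the groups overlapped. A level at least 25% higher was reached by 7 of the 12 at 5 µM (12.3% of all genes) and 6 at 10 µM (18.8%), and by 0 of the 8 at either dose.

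**Figure D3:**
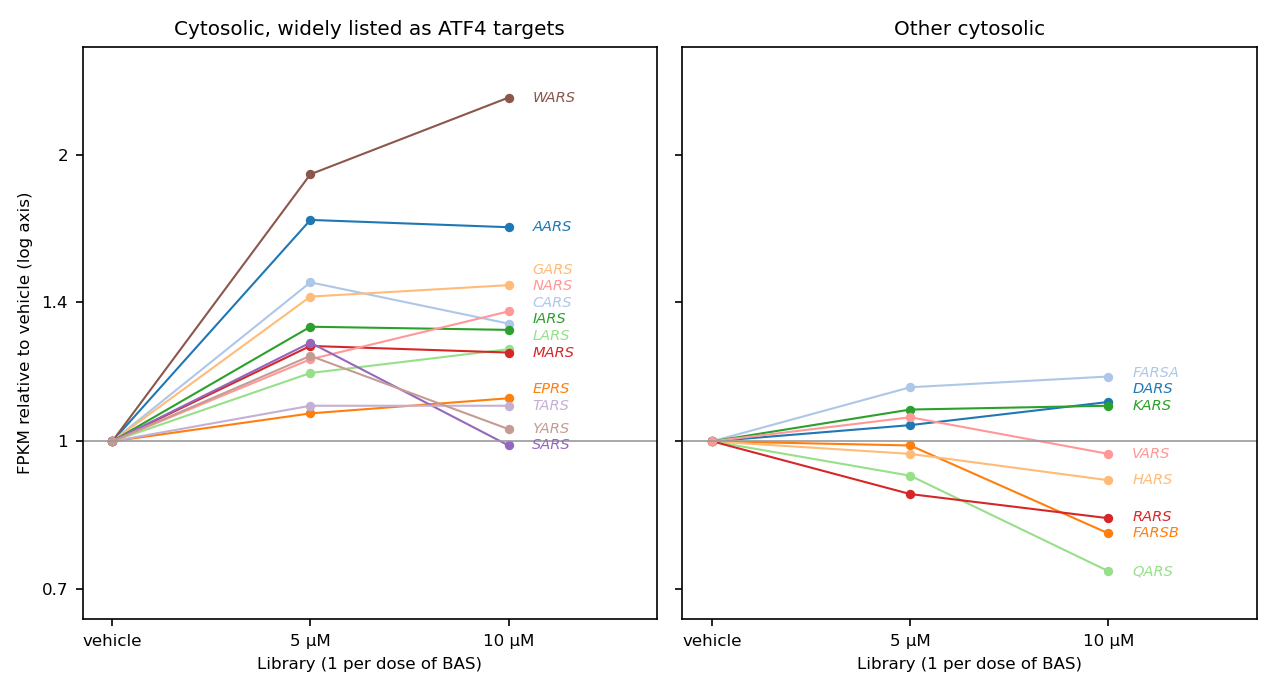
FPKM relative to the vehicle library, on a log axis, for the 12 cytosolic synthetases widely listed as ATF4 targets (left) and the other 8 (right), with 1 line per gene and 1 library per dose. At 10 µM WARS is at 2.30 times vehicle and QARS at 0.73 times.

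The 7 cytosolic genes with a TGATGNAA match shown above all belong to those 12. Their differences ran from 0.12 (TARS) to 0.76 (AARS) at 5 µM, with a median of 0.39, and all 7 were above vehicle at both doses. The 9 cytosolic genes with windows and no match ran from −0.18 (RARS) to 0.92 (WARS) at 5 µM, with a median of 0.09 and 5 above vehicle. At 10 µM the median was 0.40 for the 7 and −0.01 for the 9, of which 4 were above vehicle. Of all genes, 53.2% were above vehicle at 5 µM and 56.5% at 10 µM. The counts of the 9 lay near or below that share. WARS, the member furthest above vehicle, had no match in its windows, and TARS, with a strict match next to its start, was at 1.09 times vehicle at both doses. YARS2, the mitochondrial gene with a match, was at 13.60, 14.32 and 15.87 FPKM.

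The cytosolic enzymes were also grouped by membership of the multisynthetase complex and by structural class. The 8 complex members had medians of 0.10 and 0.14 at 5 and 10 µM, and the 12 free enzymes 0.29 and 0.18. Class I enzymes, whose catalytic domain is a Rossmann fold, had cytosolic medians of 0.30 and 0.31 over 9 genes. Class II enzymes, with an unrelated catalytic fold, had 0.15 and 0.13 over 10 genes. EPRS carries a domain of each class and was in neither group.

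Of the scaffold proteins of the complex, AIMP1 was at 18.43, 19.04 and 19.38 FPKM and AIMP2 at 109.88, 136.83 and 135.85 FPKM. AIMP1 was level over the 3 libraries, while AIMP2 differed from vehicle by 0.31 and 0.30 on the log2 scale. Other genes overlap 38.7% of the exon bases of AIMP2, most of all EIF2AK1 (84.22, 84.46 and 89.72 FPKM), so the level of AIMP2 is uncertain. The other scaffold subunit, EEF1E1 (AIMP3), was at 25.52, 29.17 and 28.63 FPKM.

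XPOT, which carries mature tRNA out of the nucleus, was at 36.60, 48.76 and 59.55 FPKM, 1.33 and 1.63 times vehicle. It was lowest with vehicle and highest at 10 µM, and was the member past the 1.5-fold call at 10 µM outside the synthetases. Of its transcript, 10.3% of the sequences of 50 bases, the read length, occur in another gene, AC073136.1 most of all. RAN, the GTPase that XPOT needs for export, was at 224.49, 173.25 and 156.13 FPKM, so that XPOT was 0.163 times RAN with vehicle and 0.381 times at 10 µM.

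The mitochondrial synthetases lay on both sides of vehicle. The highest were PARS2 (proline) at 4.20, 5.18 and 6.25 FPKM and MARS2 (methionine) at 6.90, 7.95 and 9.37 FPKM, 1.49 and 1.36 times vehicle at 10 µM and in rising order. AARS2 (alanine) was at 10.49, 12.36 and 12.07 FPKM, and HARS2 (histidine) at 22.77, 26.80 and 25.93 FPKM. EARS2 (glutamate) was at 17.72, 18.24 and 19.28 FPKM. None of these 5, nor YARS2, had a library of BAS below vehicle.

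At the lower end were FARS2 (phenylalanine) at 6.91, 6.16 and 4.91 FPKM and WARS2 (tryptophan) at 18.25, 15.35 and 13.59 FPKM, 0.71 and 0.74 times vehicle at 10 µM. RARS2 (arginine) was at 15.33, 15.26 and 11.75 FPKM and VARS2 (valine) at 13.18, 13.29 and 10.89 FPKM, so that in both only the 10 µM library stood low. IARS2 (isoleucine) was at 49.85, 44.89 and 42.38 FPKM, NARS2 (asparagine) at 5.84, 4.92 and 5.04 FPKM and TARS2 (threonine) at 16.67, 15.90 and 14.74 FPKM. These 3 had both libraries of BAS below vehicle.

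CARS2 (cysteine, 6.96, 7.28 and 6.40 FPKM), LARS2 (leucine, 11.80, 11.78 and 11.93 FPKM) and SARS2 (serine, 19.78, 21.87 and 20.43 FPKM) stayed within 0.92 and 1.11 times vehicle. SARS2 is uncertain, because 71.9% of its sequences of 50 bases also occur in other genes, most of all the readthrough gene AC011455.2.

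For each of the 16 mitochondrial enzymes, the cytosolic enzyme for the same amino acid was set beside it, with FARSA and FARSB averaged and EPRS used for glutamate and for proline. The difference from vehicle was greater for the cytosolic enzyme in 13 of 16 pairs at 5 µM and 11 of 16 at 10 µM, with a median gap of 0.22 and 0.26. The gap was largest for tryptophan, where WARS was higher and WARS2 lower at both doses: WARS was 3.25 times WARS2 with vehicle, 7.36 times at 5 µM and 10 times at 10 µM. Isoleucine and asparagine showed the same opposite directions, with gaps of 0.61 and 0.63 at 10 µM. For proline and histidine the difference from vehicle was greater for the mitochondrial enzyme at both doses, with gaps of −0.33 and −0.31 at 10 µM. The level of the cytosolic enzyme stayed the higher one in both pairs. The pairs share 3 libraries and are not replicates.

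**Figure D4:**
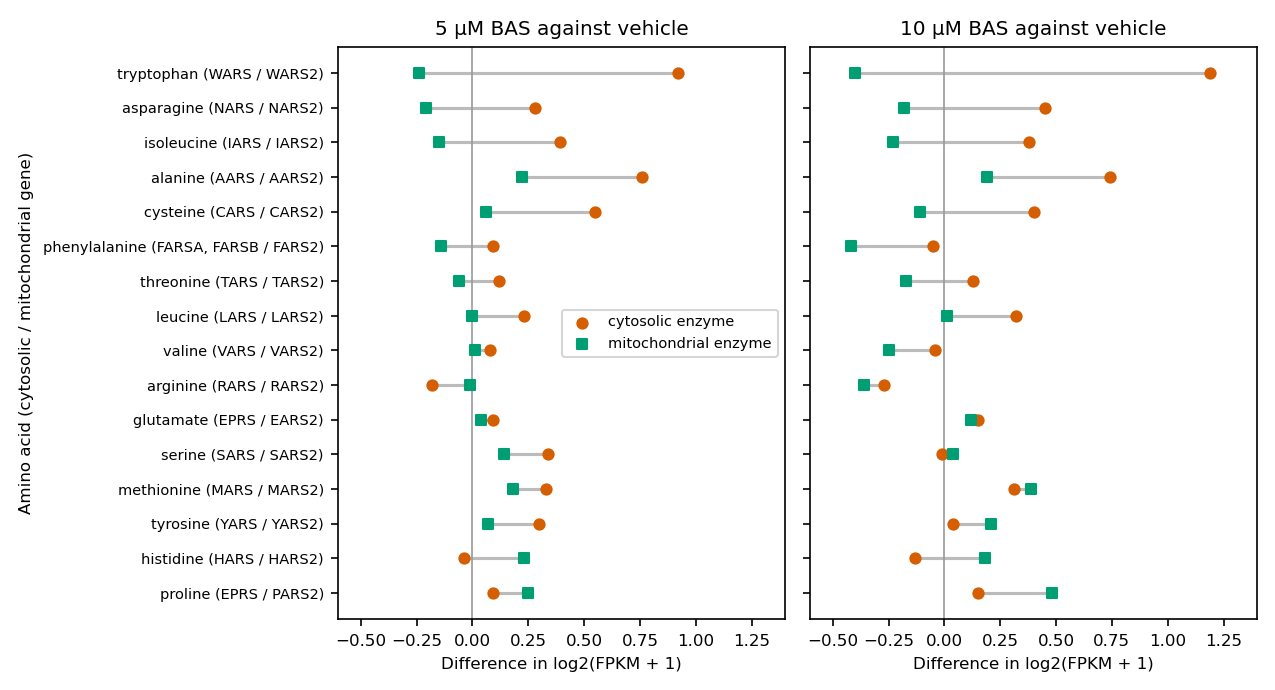
Difference from vehicle in log2(FPKM + 1) for the cytosolic enzyme (circle) and the mitochondrial enzyme (square) of each amino acid, at 5 µM (left) and 10 µM (right), ordered by the gap at 10 µM. Tryptophan is at the top with 1.19 against −0.40, and proline at the bottom with 0.15 against 0.48.

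HARS and HARS2 are neighbours read in opposite directions, with 84 bases between their RefSeq start sites. Other genes overlap 9.49% of the HARS exon bases and 14.2% of the HARS2 exon bases, in each case most of all the other gene of the pair. HARS was at −0.04 and −0.13 and HARS2 at 0.23 and 0.18, so that the 2 genes lay on opposite sides of vehicle at both doses.

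Between the 2 doses no member differed by 1.5-fold, a call reached upward by 51 and downward by 47 of all 11512 genes. Some members were nonetheless low at 10 µM among all genes. RARS2, SARS, QARS, FARSB, FARS2, VARS2 and YARS lay below −0.25, percentile 5 of all genes for 10 µM against 5 µM. No member lay above 0.29, percentile 95. At 10 µM against 5 µM, on log2(FPKM + 1), 0 members were at least 25% higher (3.86% of all genes) and 3 at least 20% lower (2.86%). The 3 were SARS, QARS and RARS2, at plain ratios of 0.78, 0.80 and 0.77. FARSB and FARS2, also at a plain ratio of 0.80, missed the call on that scale. The largest upward ratios were those of XPOT, WARS and PARS2, at 1.22, 1.21 and 1.21. The median difference was −0.01 for the cytosolic and −0.06 for the mitochondrial genes, where it was 0.04 for all genes. Each comparison with vehicle uses the same vehicle library, so the likeness of the values at 5 and 10 µM is not independent.

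Other genes of the pathway were followed in lists written with earlier results known. Among all genes, 3.01% at 5 µM and 6.05% at 10 µM passed the 1.5-fold call upward, and 1.62% and 3.47% passed it downward. Of 29 tested genes of the amino acid response outside the synthetases, 19 passed the 1.5-fold call upward at 5 µM and 18 did so at 10 µM, 0 passed it downward, and the medians were 0.74 and 0.87. One gene counted here, STC2 (0.65, 1.75 and 2.62 FPKM), passed the filter only through the libraries of BAS, and without it, a step added after the values were seen, the counts were 18 and 17 of 28 and the medians 0.76 and 0.83. ATF4 was at 233.77, 353.69 and 331.17 FPKM, and ASNS, which makes asparagine, at 75.40, 192.11 and 240.05 FPKM. The pseudokinase gene TRIB3 and the AP-1 family gene JDP2 were highest in this list, at 2.28 and 2.06 at 10 µM. Lowest were VLDLR, a lipoprotein receptor, at −0.32, and the cystine transporter SLC7A11 at −0.04. Beside these medians, WARS was at 0.92 and 1.19 and AARS at 0.76 and 0.74, and the other synthetases were lower.

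Among 14 genes of uncharged tRNA sensing and control of the initiation factor eIF2, 1 was at least 1.5-fold higher at each dose, where 3.01% and 6.05% of all genes were. This was PPP1R15A (GADD34), which restores eIF2 function, at 17.99, 41.20 and 50.17 FPKM. EIF2AK4, the gene of GCN2, was at 12.80, 12.99 and 13.48 FPKM, and EIF2AK3, the gene of the kinase PERK, was at 0.57 at 10 µM. IMPACT, an inhibitor of GCN2, was at 4.99, 4.27 and 3.23 FPKM, and the eIF2B subunit gene EIF2B2 was at −0.28.

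In tRNA processing and export, 3 of 27 genes were at least 1.5-fold higher and 1 lower at 10 µM, where 6.05% and 3.47% of all genes were, so that the count of lower genes was near that of all genes. Higher were the RNase P subunit genes RPP14 (1.05, 3.33 and 3.38 FPKM), RPP21 (60.55, 82.73 and 103.01 FPKM) and RPP40 (17.81, 26.13 and 27.89 FPKM), RPP40 being named for completeness after its value was seen. Lower was ELAC1, a tRNA repair nuclease, at 2.82, 1.42 and 0.86 FPKM. RNA polymerase III, which makes tRNA, had 0 of 21 genes past 1.5-fold in either direction, with POLR3GL and POLR3C at 0.55 and 0.54 and BDP1 and GTF3C3 at −0.44 and −0.27 at 10 µM.

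Downstream of charging, the cytosolic elongation factors had 0 of 10 genes past 1.5-fold and medians of 0.10 and −0.08, with EIF5A at 633.41, 502.97 and 487.23 FPKM, the selenocysteine factor EEFSEC at −0.30 and EEF1A2 at 0.33 at 10 µM. Of 18 mitochondrial charging partners and translation factors, 0 were at least 1.5-fold higher and 1 was lower at each dose, where 1.62% and 3.47% of all genes were lower. The lower gene was MRRF, a ribosome recycling factor, at 12.91, 8.22 and 5.92 FPKM. GATB, a subunit of the enzyme that makes mitochondrial glutaminyl-tRNA, was at −0.28, PTCD1 at 0.57 and MTFMT, which formylates the initiator methionyl-tRNA, at 0.14 at 10 µM. The medians of −0.01 and −0.07 were near those of the mitochondrial synthetases.

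**Figure D5:**
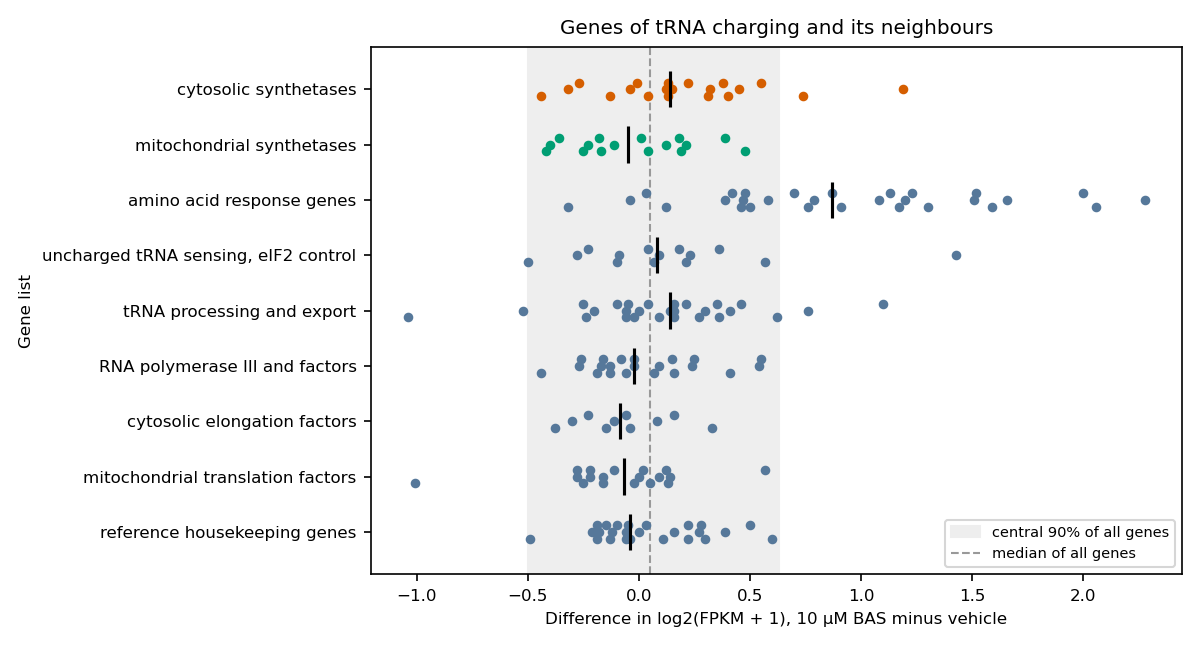
Difference between 10 µM BAS and vehicle in log2(FPKM + 1) for the tested genes of each list, with 1 point per gene, a black bar at the list median, a grey band for the central 90% of all genes and a dashed line at their median. The amino acid response genes have a median of 0.87, the cytosolic synthetases 0.14 and the mitochondrial synthetases −0.05.

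The libraries summed to 487923 to 507342 FPKM, and the read depth is unknown, so no counting error can be given. Of 13 measured small cell lung cancer and neuroendocrine markers, 11 passed the filter, and POU2F3 and YAP1 were at most 0.07 FPKM. The 5 µM library exceeded vehicle in 8 of the 11 and the 10 µM library in 9, and the median differences were 0.16 and 0.38. Of all genes, 53.2% and 56.5% were above vehicle, with medians of 0.02 and 0.05. Furthest above vehicle at 10 µM were CHGA, a secretory granule gene, at 1.35 and UCHL1 at 1.09 on the log2 scale. NEUROD1 (104.96, 93.15 and 91.62 FPKM) and SYP (17.30, 12.77 and 13.25 FPKM) were lower with BAS. The summed level of the 13 was 454, 518 and 595 FPKM. Of 10 measured markers of blood, endothelial, stromal and liver cells, 6 were under 1 FPKM in every library, PTPRC was at 0.92 to 1.09 FPKM, and CDH5, COL1A1 and COL3A1 were high. None of the 10 was at 0, and their sum was 421, 578 and 606 FPKM, mostly COL3A1 (297.04, 433.94 and 453.79 FPKM). Both marker sums were higher in the libraries of BAS, as was the cytosolic synthetase sum, and their part in the synthetase values was not tested.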

How the data were processed

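RNA-seq was made from H446 cells, 1 library per group, as single-end reads of 50 bases per the labels. The authors deposited FPKM per gene symbol, per the file headers; the file titles say RPKM, the same quantity for single-end reads. Trim Galore, BWA, Bowtie2, Cufflinks, Cuffdiff and build hg19 are named in the submitters' processing notes; not given in the sources used here: versions, annotation, strand and scaling. Each file has 16795 rows for 16793 symbols, and 2 repeated symbols were summed. Values were compared as log2(FPKM + 1) among genes averaging 1 FPKM or more. With 1 library per group, calls are by size alone (25% higher or 20% lower, 1.5-fold and 2-fold on that scale), and the steps were tested on simulated data. Members and lists were chosen with earlier results of these data known. Named genes are all members, ATF4, ASNS, EIF2AK4 and up to 2 highest and 2 lowest genes at 10 µM of each pathway list; DDIT3, WDR25, EIF2AK1, RPP40, STC2 and the interferon genes were added after their values were seen. Lengths, GC content, overlaps and shared sequences came from GENCODE 29 (GRCh38), matched by symbol for 11363 of 11512 genes (98.7%), and promoters from RefSeq. Motif letters were searched on both strands. Python 3.11.15 with numpy 2.4.6 and pandas 2.3.3 made the values, and matplotlib 3.10.9 the figures.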

Additional observations from a re-analysis of the deposited data

How the results depend on the processing

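The alternatives were a pseudocount of 0.1 or of 0.5, all genes kept, genes averaging 5 FPKM or more, median-ratio scaling, a common total, quantile normalization, removal of GC and length trends, means, other fold limits and lists without HARS2 or without GARS and KARS. Of 330 summary values recomputed, 318 kept their sign and moved by at most 0.1 (counts by at most 1.5 times). Keeping all genes or only those averaging 5 FPKM or more could not change these values, because the lowest member mean was 5.21 FPKM. Those settings are counted as unchanged here and among the single members below, so they add nothing to the agreement. The mitochondrial median at 5 µM, 0.03, was −0.03 with a common total and −0.01 after trends in GC and length were removed. The cytosolic median at 10 µM against 5 µM, −0.01, was 0.03 with a common total, so neither median has a direction. The cytosolic minus mitochondrial median at 10 µM, 0.19, was 0.29 with GC and length trends removed. A limit of 25% higher or 20% lower was also set in place of 1.5-fold. The higher cytosolic genes were then 7 of 20 at 5 µM and 6 of 20 at 10 µM, and 1 was lower at 10 µM. At that limit 2 of 16 mitochondrial genes were higher and 3 lower at 10 µM. Of all genes, 12.3% were higher at 5 µM and 18.8% at 10 µM, and 1319 of 11512 were lower at 10 µM. Against 5 µM, 2 cytosolic genes and 1 mitochondrial gene were lower at 10 µM at that limit, where 2.86% of all genes were. At 4-fold, 0 cytosolic genes were higher at 10 µM. Of 936 values of single members, 1 changed its call: GARS at 10 µM passed 1.5-fold with quantile normalization, at 0.59. Over all genes, the 346 higher and 186 lower calls at 5 µM were 270 and 254 with a common total, and the 696 and 399 at 10 µM were 550 and 498 with median-ratio scaling. With a pseudocount of 0.1 they were 564 and 330 at 5 µM. No paired analysis was possible because there is 1 library per group, and for the same reason no library could be left out.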
